A study of Mus musculus with 15 samples.

Results

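Regulators of G protein signalling (RGS proteins) were described across the 3 genotypes through 9 genes, Rgs2, Rgs4, Rgs7, Rgs8, Rgs9, Rgs10, Rgs14, Rgs16 and Rgs20, taken from the count table by symbol, 9 rows of 54232 in all. Each of 15 mice, all aged 6 months, gave 1 RNA library from its striatum: 4 mice labelled E1, 4 labelled KI-96 and 7 labelled WT. The study's title places them in Huntington's disease knock-in mice and asks about toxicity from RAN translation, in which an expanded repeat is translated without a start codon. The labels name the E1 and KI-96 genotypes without describing their alleles, their background strain or the sex of the animals.

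G protein-coupled receptors act by loading GTP onto the alpha subunit of a heterotrimeric G protein, and RGS proteins end the signal by speeding the hydrolysis of that GTP. In the striatum, the input region of the basal ganglia and the region most affected in Huntington's disease, they set the strength and duration of signals from dopamine, acetylcholine, adenosine, opioid and glutamate receptors. The members fall into subfamilies. Rgs2, Rgs4, Rgs8 and Rgs16 are small R4 proteins, Rgs7 and Rgs9 are R7 proteins that work as a complex with the G protein subunit Gnb5, Rgs10 and Rgs14 belong to the R12 group, and Rgs20 to the RZ group.

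Library totals ran from 18199927 to 19533231 counts in E1, from 14678565 to 23373551 in KI-96 and from 17281603 to 26388542 in WT. Some libraries stood apart in marker content. The mean log2 CPM (CPM being counts scaled to a common library size) of 12 cortical excitatory neuron markers was 5.68 in E1 replicate 2, 5.26 in E1 replicate 3 and 5.55 in WT replicate 3, and 1.88 to 3.32 in the other 12 libraries. The 9 thalamic neuron markers averaged 4.55 in KI-96 replicate 3 and 5.17 in KI-96 replicate 4, and 2.82 to 4.07 elsewhere. The 7 choroid plexus markers summed to 415 CPM in WT replicate 2 and to 27.97 to 194 CPM in the other 14 libraries. KI-96 replicate 3 had the highest score on the first principal component of all genes (73.0, with -34.7 to 23.1 elsewhere), a component with 18.3% of the variance. Markers of striatal spiny projection neurons were high in every library, at a mean log2 CPM of 8.61 to 9.38. The lowest mean, 8.61, was that of KI-96 replicate 4, with KI-96 replicate 3 at 8.68 and WT replicate 6 at 8.70. Of these markers, Ppp1r1b (DARPP-32, a phosphatase inhibitor) was lowest in KI-96 replicate 3, at 894 CPM. It stood at 1387 CPM in KI-96 replicate 4 and at 1159 CPM in WT replicate 6.

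Per exon length, Rgs4 and Rgs9 were the most abundant of the 9 in WT striatum. Rgs4 stood at 156 ± 37.8 CPM per kb of exon (SD, n = 7) and Rgs9 at 95.97 ± 12.2. The WT libraries of Rgs4, from 107 to 211 CPM per kb, overlapped those of Rgs9, from 82.6 to 119. Rgs2 followed at 32.4 ± 5.36, clear of Rgs9, then Rgs8 at 22.8 ± 2.55, Rgs14 at 17.5 ± 2.35, Rgs10 at 17.4 ± 2.75 and Rgs20 at 13.0 ± 2.83 CPM per kb. The WT ranges of neighbours in the order from Rgs2 to Rgs20 overlapped. Rgs7, at 8.03 ± 0.751, and Rgs16, at 1.91 ± 0.582, were separate from the member above them and from each other. Exon length here is the union of all annotated exons, which understates genes with many alternative exons such as Rgs8, with 9640 bases.

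**Figure D1:**
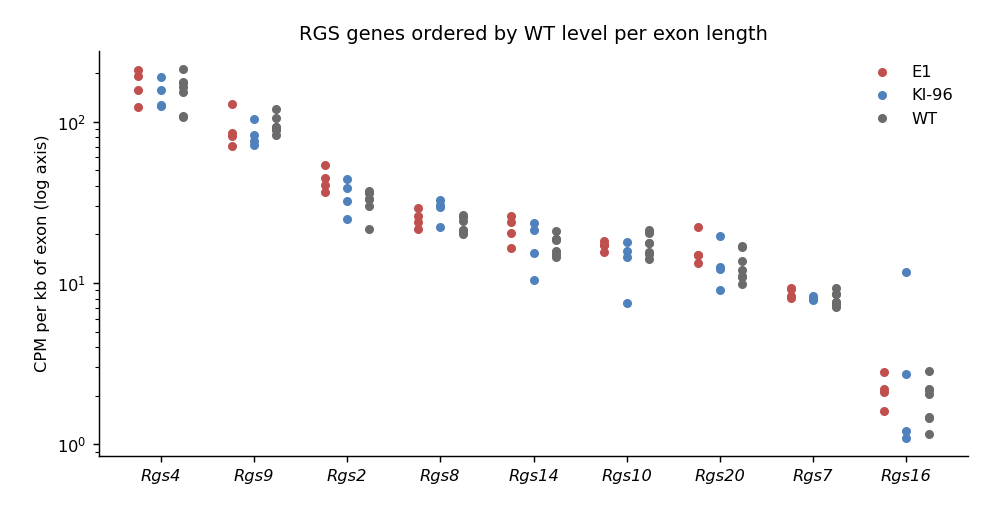
Level of each RGS gene as CPM per kb of annotated exon (vertical log axis) in every library of E1, KI-96 and WT (1 point per library), ordered by the WT mean. Rgs4 and Rgs9 are highest and Rgs16 is lowest, apart from KI-96 replicate 4.

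Of the 9 members, 0 passed the threshold of adjusted p under 0.05 in any of the 3 comparisons, by edgeR's quasi-likelihood test with Benjamini-Hochberg adjustment over 18278 genes. DESeq2 and limma-voom also called 0 members in each comparison, while calling 58, 72 and 206 genes (DESeq2) and 2, 1 and 0 genes (limma-voom) in E1 against WT, KI-96 against WT and KI-96 against E1. Among all genes edgeR called 1 in E1 against WT (0.00547%), 0 in KI-96 against WT (0%) and 0 in KI-96 against E1 (0%). At an unadjusted p under 0.05, 1 member of 9 was past in E1 against WT (Rgs2, higher), where 8.75% of all genes were, 3.69% higher and 5.06% lower. In KI-96 against WT 2 were past (Rgs8 and Rgs16, both higher), against 10.5% of all genes, 5.8% higher and 4.68% lower, and in KI-96 against E1 0 were, against 14.3%, 7.84% higher and 6.42% lower. DESeq2 passed the same members at that level, and limma-voom passed Rgs2 in E1 and Rgs8 and Rgs10 in KI-96 against WT. In each comparison 0 members had groups that did not overlap, which 1.69%, 1.29% and 4.79% of all genes had. The 95% intervals of the log2 fold changes lay between -1 and 1 for 8 of 9 members in every comparison, Rgs16 being the exception.

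Fold changes in E1 against WT were positive for 7 of 9 members, with a median log2 fold change of 0.14, where 49.7% of all genes were positive and their median was -0.0020. In KI-96 against WT 5 of 9 were positive (median 0.01), with 47.9% of all genes positive (median -0.01). In KI-96 against E1 2 of 9 were positive (median -0.18), with 49.4% of all genes positive (median -0.0037). The comparisons share libraries pairwise. In whole tissue, fewer cells of a type and less RNA per cell cannot be told apart.

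**Figure D2:**
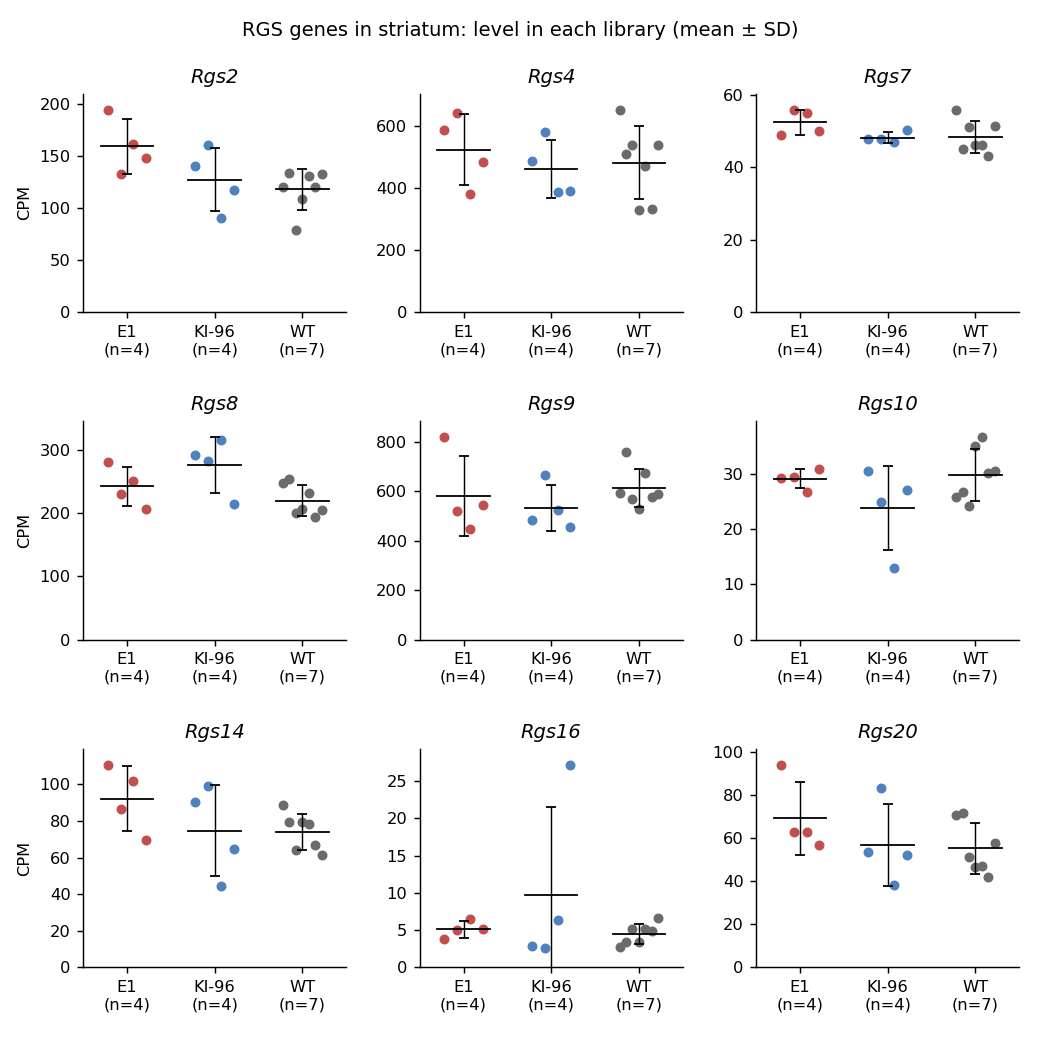
CPM of each RGS gene in every library, in panels by gene, with E1 (n = 4), KI-96 (n = 4) and WT (n = 7) side by side; points are libraries, horizontal bars are means and whiskers SD. The genotypes overlap for every gene, and the Rgs16 mean in KI-96 is set by 1 library at 27.2 CPM, so that its lower whisker runs below the axis.

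**Figure D3:**
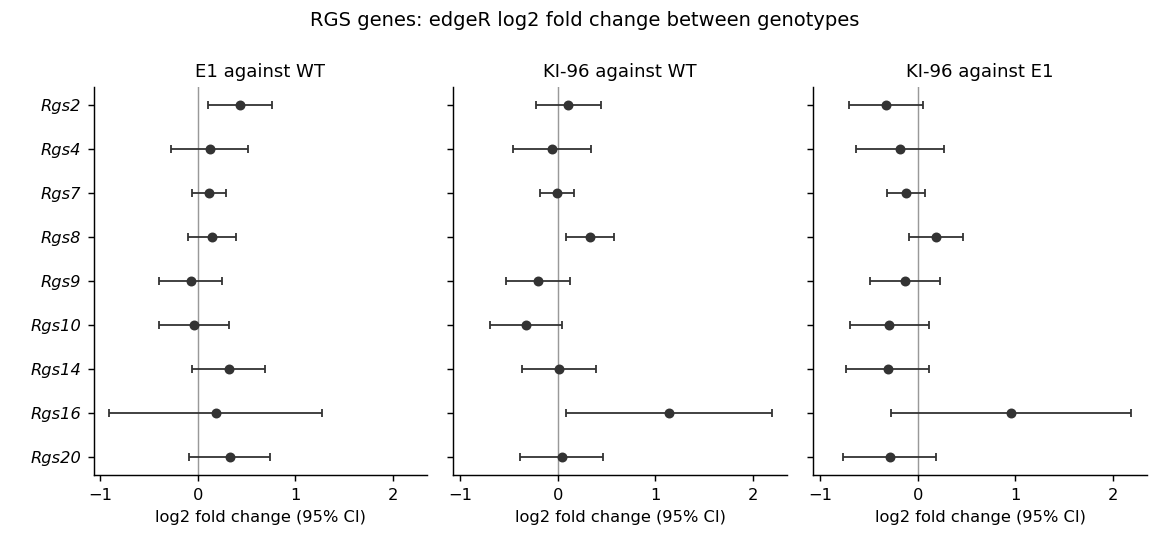
Log2 fold changes of the 9 RGS genes for E1 against WT, KI-96 against WT and KI-96 against E1 (horizontal axis), with 95% intervals from edgeR. Intervals exclude 0 for Rgs2 in E1 against WT and for Rgs8 and Rgs16 in KI-96 against WT, before adjustment for the number of genes tested.

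Rgs2 (ENSMUSG00000026360.9, chromosome 1, 143999338 to 144004161, minus strand, build GRCm38) encodes an R4 protein that favours the Gq class of G proteins, and its transcription is known to be induced quickly by neuronal activity and cyclic AMP. Its level was 194, 133, 161 and 148 CPM in E1 replicates 1 to 4. KI-96 replicates 1 to 4 had 140, 161, 89.9 and 117 CPM, and the 7 WT libraries ran from 78.3 through a median of 120 to 134 CPM. The highest 3 values of E1 exceeded the WT range, and E1 replicate 2 lay just inside it. The means were 159 ± 26.2 CPM in E1, 127 ± 30.4 in KI-96 (SD, n = 4 each) and 118 ± 19.4 in WT (n = 7). On the log2 scale E1 was higher than WT by 0.43 (SE 0.16, 95% interval 0.11 to 0.76, unadjusted p = 0.0125, edgeR adjusted p = 0.484). Over 25 other settings, lowest without E1 replicate 1, it lay between 0.32 and 0.56 (adjusted p 0.221 to 0.968). KI-96 against WT gave 0.11 (SE 0.16) and KI-96 against E1 -0.32 (SE 0.18, unadjusted p = 0.0863, edgeR adjusted p = 0.412). Without KI-96 replicates 3 and 4 these were 0.35 and -0.08.

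Immediate early genes, which neurons switch on quickly when active, were measured beside Rgs2. Their list was drawn up with earlier results of these data known. In E1 all 20 were above WT (median log2 fold change 0.73), and 16 had an unadjusted p under 0.05, where 3.69% of all genes were higher. Of the 20, 1 passed over all genes, the ERK phosphatase Dusp5 (log2 fold change 0.80, SE 0.11, edgeR adjusted p = 0.0339). Dusp5 had 16.8 ± 2.74 CPM in E1, 11.1 ± 1.15 in KI-96 and 9.65 ± 0.751 in WT, and its E1 and WT libraries did not overlap. It was the single gene called in this comparison; the number of genes called was 0 on leaving out 11 of the 15 libraries in turn, but 12 without WT replicate 1 and 257 without E1 replicate 4. Averaged over the list, log2 CPM ran from 5.68 to 6.47 in E1, 4.74 to 5.35 in KI-96 and 4.90 to 5.65 in WT. In KI-96 against WT 4 of 20 were positive (median -0.22, 2 lower at an unadjusted p under 0.05, 0 called, with Dusp1 first at -0.44, SE 0.17), and in KI-96 against E1 0 of 20 were (median -0.94, all 20 lower at an unadjusted p under 0.05, 0 called, with Arc first at -1.30, SE 0.27). Of all genes, 4.68% were lower at that level in KI-96 against WT and 6.42% in KI-96 against E1. Whether the level of the immediate early genes had a part in that of Rgs2 was not tested.

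Rgs2 and Rgs4 both hold a pair of short cyclic AMP response element matches in their promoter windows, which are shown because Rgs2 is known to be induced by cyclic AMP. Rgs9, near Rgs4 at the top of the level order, and Rgs16, at its foot, are set beside them. RefSeq (GRCm38.p6) gives windows of 250 bases before to 50 bases after the start for 7 of the 9 members (all but Rgs14 and Rgs20). Capitals mark matches on either strand to CGTCA (the short response element) and TATAAA (the TATA box). The windows lie at chr1:144004100-144004399 (Rgs2, minus strand), chr1:169747593-169747892 (Rgs4, minus strand), chr11:109298132-109298431 (Rgs9, minus strand) and chr1:153740103-153740402 (Rgs16, plus strand).
Rgs2: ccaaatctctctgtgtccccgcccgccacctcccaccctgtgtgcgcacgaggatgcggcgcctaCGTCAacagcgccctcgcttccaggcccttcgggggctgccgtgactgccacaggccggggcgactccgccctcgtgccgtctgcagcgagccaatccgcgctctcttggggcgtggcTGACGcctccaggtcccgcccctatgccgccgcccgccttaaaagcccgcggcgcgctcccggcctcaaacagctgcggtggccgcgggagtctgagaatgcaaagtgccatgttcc
Rgs4: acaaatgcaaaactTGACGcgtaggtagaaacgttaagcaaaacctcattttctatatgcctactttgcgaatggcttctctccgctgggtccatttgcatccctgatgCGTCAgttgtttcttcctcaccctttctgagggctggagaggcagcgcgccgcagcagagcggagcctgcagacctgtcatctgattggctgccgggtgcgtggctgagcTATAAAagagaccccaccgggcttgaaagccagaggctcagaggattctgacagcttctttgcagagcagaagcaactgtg
Rgs9: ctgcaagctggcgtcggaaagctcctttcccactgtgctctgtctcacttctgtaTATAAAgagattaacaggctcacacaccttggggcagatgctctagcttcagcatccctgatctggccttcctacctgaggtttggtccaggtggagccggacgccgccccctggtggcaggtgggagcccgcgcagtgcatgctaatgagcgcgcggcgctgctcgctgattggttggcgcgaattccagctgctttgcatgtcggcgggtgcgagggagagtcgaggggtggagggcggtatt
Rgs16: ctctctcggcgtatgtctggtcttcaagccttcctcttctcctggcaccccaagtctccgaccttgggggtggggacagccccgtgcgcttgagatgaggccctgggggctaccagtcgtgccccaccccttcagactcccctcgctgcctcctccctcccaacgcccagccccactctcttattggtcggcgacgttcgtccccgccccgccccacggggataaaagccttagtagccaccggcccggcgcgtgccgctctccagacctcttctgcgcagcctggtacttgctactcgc
In the Rgs2 window the CGTCA matches begin 185 and 67 bases before the start, and in the Rgs4 window 236 and 141 bases before it. Rgs4 also has TATAAA 31 bases before the start, Rgs9 has it 195 bases before, and Rgs16 has a match to neither. Of the members whose windows are not printed, Rgs8 has a CGTCA match in 1 of its 3 windows, 46 bases before that start, and Rgs7 and Rgs10 have none. Of all 32851 promoter windows, 20.8% hold CGTCA and 13.6% hold TATAAA. The full element TGACGTCA, which contains CGTCA on both strands, the AP-1 letters TGANTCA and the Egr letters GCGTGGGCG were also searched on both strands. None of the windows of the 7 members holds any of these 3, which 1.79%, 7.81% and 0.612% of all windows do. A match is a description of letters and not a binding site.

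Rgs4 (ENSMUSG00000038530.11, chromosome 1, 169741477 to 169747642, minus strand) acts on the Gi/o and Gq classes and is known as a transcript that is abundant in striatum and cortex. Its level was 589, 644, 383 and 485 CPM in E1 replicates 1 to 4. In KI-96 replicates 1 to 4 it was 488, 584, 387 and 393 CPM, and in WT it ran from 330 through a median of 510 to 654 CPM. The groups overlapped over most of their range. Log2 fold changes were 0.12 (SE 0.19, 95% interval -0.28 to 0.52) in E1 against WT and -0.06 (SE 0.19, -0.46 to 0.34) in KI-96 against WT, with edgeR adjusted p of 0.860 and 0.929. The second turned positive without KI-96 replicate 3 (0.02), KI-96 replicate 4 (0.0072) or WT replicate 1 (0.03).

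Rgs8 (ENSMUSG00000042671.12, chromosome 1, 153653025 to 153700323, plus strand), an R4 protein that acts on Gi/o and is strongly expressed in striatum and cerebellar Purkinje cells, had 281, 231, 252 and 208 CPM in E1 replicates 1 to 4. KI-96 replicates 1 to 4 had 293, 283, 316 and 214 CPM, against 194, 207 and 255 CPM (lowest, median and highest) in WT. Of the KI-96 libraries, 3 lay above every WT library, and KI-96 replicate 4 lay within the WT range. For KI-96 against WT, means of 277 ± 43.8 (SD, n = 4) and 220 ± 24.6 CPM (n = 7) gave a log2 fold change of 0.33 (SE 0.12, 95% interval 0.08 to 0.57, unadjusted p = 0.0115, edgeR adjusted p = 0.365). The value was 0.43 without KI-96 replicate 4 and 0.26 without KI-96 replicate 3, and over all settings the adjusted p ran from 0.0912 to 0.977. E1 against WT gave 0.14 (SE 0.12), and KI-96 against E1 gave 0.19 (SE 0.13, edgeR adjusted p = 0.519). An antisense gene, Gm29529, overlaps Rgs8 exons and had at most 16 counts in a library.

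Rgs16 (ENSMUSG00000026475.7, chromosome 1, 153740349 to 153745468, plus strand), an R4 protein known for circadian and fasting regulation and for expression in thalamus, was the scarcest member, with 39 to 653 counts per library. Its level was 3.74, 4.94, 6.54 and 5.14 CPM in E1 replicates 1 to 4. In KI-96 replicates 1 to 4 it was 2.84, 2.57, 6.39 and 27.2 CPM, and in WT 2.72, 4.81 and 6.67 CPM (lowest, median and highest). A single library, KI-96 replicate 4, lay above all others, and of the remaining KI-96 libraries 1 lay just below the lowest WT library and 2 inside the WT range. On the log2 scale KI-96 was higher than WT by 1.14 (SE 0.49, 95% interval 0.09 to 2.19, unadjusted p = 0.0359, edgeR adjusted p = 0.438) and higher than E1 by 0.96 (SE 0.58, edgeR adjusted p = 0.450). By limma-voom the differences were 0.64 (SE 0.48, adjusted p = 0.662) and 0.46 (SE 0.55, adjusted p = 0.715). By edgeR without KI-96 replicate 4 they were -0.18 (SE 0.31) and -0.36 (SE 0.34), and without KI-96 replicates 3 and 4 -0.73 (SE 0.32) and -0.91 (SE 0.34).

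That library was also the highest in thalamic markers. The 9 marker genes summed to 113 to 142 CPM in E1, 137 to 411 CPM in KI-96 and 109 to 192 CPM in WT, with 0 of the 9 at 0 in all libraries. Slc17a6, a glutamate transporter of thalamic neurons, stood at 46.0 CPM in KI-96 replicate 4, 19.2 in KI-96 replicate 3 and 0.769 to 14.3 CPM in the other 13 libraries. Prkcd was 130 CPM in KI-96 replicate 4 and 8.46 to 44.6 CPM in the other 14. All 9 thalamic markers were positive in KI-96 against WT (median 0.91). Of the 9, 5 had an unadjusted p under 0.05, where 5.8% of all genes were higher, and 0 were called. Ntng1, a membrane-anchored netrin with the smallest p, had 24.99 ± 14.7 CPM in KI-96 and 12.6 ± 3.33 in WT. With the thalamic marker mean as a covariate, the Rgs16 log2 fold changes were -0.17 (SE 0.35) for KI-96 against WT and -0.57 (SE 0.40) for KI-96 against E1. This covariate was chosen after seeing the data, and KI-96 replicate 4 was the highest library in both it and Rgs16. The fit therefore cannot tell genotype from tissue content in that library, and the part of thalamic tissue in the Rgs16 level was not tested. KI-96 replicate 3, second in thalamic markers, had 6.39 CPM of Rgs16, within the WT range.

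**Figure D4:**
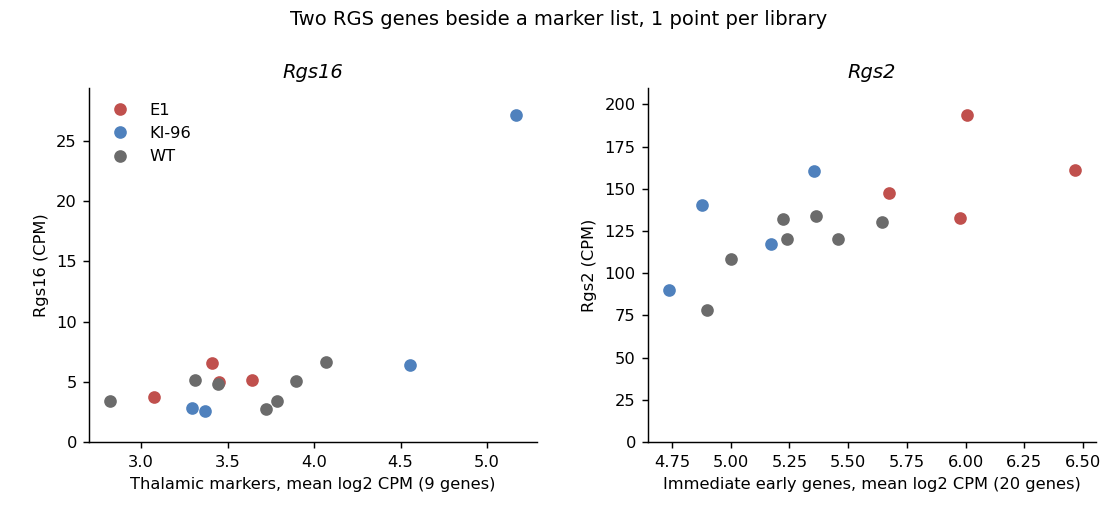
Left, Rgs16 in CPM against the mean log2 CPM of 9 thalamic markers; right, Rgs2 in CPM against the mean log2 CPM of 20 immediate early genes; 1 point per library, coloured by genotype. KI-96 replicate 4 is highest on both axes of the left panel, at 27.2 CPM and 5.17, and on the right all 4 E1 libraries lie at 5.68 or above.

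Rgs9 (ENSMUSG00000020599.13, chromosome 11, 109225355 to 109298129, minus strand) has a long form that is characteristic of the striatum, where it restrains dopamine D2 and opioid receptor signalling, and a short form of photoreceptors. Its level was 819, 520, 448 and 544 CPM in E1 replicates 1 to 4. KI-96 replicates 1 to 4 had 485, 665, 525 and 457 CPM, and WT had 528, 589 and 759 CPM (lowest, median and highest). Of the KI-96 libraries, 3 lay below every WT library, and KI-96 replicate 2 lay inside the WT range. Means were 533 ± 92.1 CPM in KI-96 and 613 ± 78.1 in WT, with a log2 fold change of -0.20 (SE 0.15, 95% interval -0.53 to 0.12, edgeR adjusted p = 0.659), which was negative in all 25 other settings (-0.33 to -0.09). For E1 against WT it was -0.07 (SE 0.15), -0.28 without E1 replicate 1, and 0.13 without the 3 libraries high in cortical markers. E1 replicate 1, where Rgs9 was highest, also had the highest spiny neuron marker mean, 9.38. E1 replicate 3, where Rgs9 was lowest, had a mean of 9.01, and WT replicate 6, with 576 CPM of Rgs9, had 8.70. The part of spiny neuron content in the Rgs9 level was not tested.

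Rgs7 (ENSMUSG00000026527.13, chromosome 1, 175059087 to 175492500, minus strand), an R7 protein of Gi/o signalling found widely in brain, had the narrowest range over the 15 libraries, the highest being 1.30 times the lowest. It had 48.8, 55.8, 54.8 and 49.9 CPM in E1 replicates 1 to 4. KI-96 replicates 1 to 4 had 47.7, 47.8, 47.0 and 50.3 CPM, and WT had 43.0, 46.1 and 55.7 CPM (lowest, median and highest). The coefficient of variation within a group was 6.70% in E1, 3.01% in KI-96 and 9.35% in WT; that of Rgs10 in E1 was lower, at 5.95%. The log2 fold changes were 0.12 (SE 0.08, 95% interval -0.06 to 0.29) in E1 against WT and -0.0039 (SE 0.08, -0.18 to 0.17) in KI-96 against WT. Its 2 highest E1 values were in E1 replicates 2 and 3, the E1 libraries high in cortical markers. The highest WT value, 55.7 CPM, was in WT replicate 1, which was low in cortical markers (mean log2 CPM 2.78). WT replicate 3, which was high in cortical markers, had 51.1 CPM. The log2 fold change of E1 against WT was 0.07 (SE 0.08) with the cortical marker mean as a covariate. It was 0.04 (SE 0.11) without the 3 libraries high in cortical markers. The part of cortical content in the Rgs7 level was not tested.

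The partners of the R7 proteins were measured too. Gnb5, the obligate beta subunit of the complex, had 252 ± 44.0 CPM in E1, 207 ± 65.6 in KI-96 and 214 ± 39.7 in WT. Rgs7bp, which anchors the complex at the membrane, had 489 ± 40.8, 585 ± 170 and 557 ± 80.8 CPM in E1, KI-96 and WT. Gpr158, an orphan receptor that recruits Rgs7, had 236 ± 27.8 CPM in E1, 285 ± 60.6 in KI-96 and 246 ± 30.0 in WT. Against WT, the log2 fold changes of Gnb5 were 0.23 (SE 0.18) for E1 and -0.05 (SE 0.18) for KI-96, those of Rgs7bp -0.19 (SE 0.15) for E1 and 0.07 (SE 0.15) for KI-96, and those of Gpr158 -0.06 (SE 0.13) for E1 and 0.21 (SE 0.13) for KI-96. The full list of 10 RGS partners also held genes that are not partners of the R7 proteins, among them Ric8a. Of the 10, 9 were tested and 0 were called in any comparison, with 0 at an unadjusted p under 0.05. Ric8a, a chaperone of G alpha subunits with the smallest p of the list in E1 against WT, had 40.7 ± 5.05 CPM in E1 and 37.3 ± 2.77 in WT. Rgs9bp, the photoreceptor anchor of Rgs9, was below the filter with at most 13 counts per library.

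Rgs10 (ENSMUSG00000030844.11, chromosome 7, 128373621 to 128418758, minus strand), a small R12 protein known in microglia as well as in neurons, had 29.3, 29.5, 26.8 and 30.9 CPM in E1 replicates 1 to 4. Values in KI-96 replicates 1 to 4 were 30.5, 24.9, 12.9 and 27.1 CPM, and WT had 24.2, 30.1 and 36.6 CPM (lowest, median and highest). KI-96 replicate 3 was the lowest of all 15 libraries, and the other 3 KI-96 libraries overlapped WT. The log2 fold change of KI-96 against WT was -0.33 (SE 0.17, 95% interval -0.69 to 0.04, edgeR adjusted p = 0.521), and -0.12 without KI-96 replicate 3. The mean log2 CPM of 9 microglial markers was 4.38 in KI-96 replicate 3 and 4.96 to 5.36 in the other 14 libraries, while the microglial receptor Cx3cr1 was 75.8 CPM there and 62.6 to 74.7 CPM in the other KI-96 libraries. KI-96 replicate 3 also had the lowest mean of 9 interneuron markers (4.27) and of 8 astrocyte markers (7.40). It did not have the lowest mean of the oligodendrocyte, vessel or choroid plexus markers. The part of microglial or other cell content in the Rgs10 level was not tested. E1 against WT gave -0.04 (SE 0.17).

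Rgs14 (ENSMUSG00000052087.14, chromosome 13, 55369732 to 55384687, plus strand), an R12 protein that also binds Ras family proteins and inactive G alpha i and is known from hippocampal area CA2, had 111, 86.8, 102 and 69.7 CPM in E1 replicates 1 to 4. The KI-96 libraries had 90.4, 99.1, 44.3 and 64.8 CPM, and WT had 61.5, 78.3 and 88.7 CPM (lowest, median and highest). The highest 2 values of E1 exceeded the WT range, and KI-96 spread to both sides of it. The log2 fold change was 0.32 (SE 0.18, 95% interval -0.06 to 0.69, unadjusted p = 0.0930, edgeR adjusted p = 0.615) in E1 against WT and 0.01 (SE 0.18) in KI-96 against WT. The KI-96 value was 0.36 without KI-96 replicates 3 and 4, and -0.16 without KI-96 replicate 2. KI-96 against E1 gave -0.31 (SE 0.20), and 0.04 without KI-96 replicates 3 and 4.

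Rgs20 (ENSMUSG00000002459.17, chromosome 1, 4909576 to 5070285, minus strand), an RZ protein that is selective for the Gz alpha subunit, had 94.0, 63.1, 63.0 and 56.7 CPM in E1 replicates 1 to 4. The KI-96 libraries had 53.5, 83.3, 38.3 and 52.1 CPM, and WT had 41.9, 51.1 and 71.8 CPM (lowest, median and highest). E1 replicate 1 was the highest of all libraries, and the other E1 libraries lay inside the WT range. Between E1 and WT the log2 fold change came to 0.33 (SE 0.20, 95% interval -0.09 to 0.74, edgeR adjusted p = 0.637), and 0.14 without E1 replicate 1. KI-96 gave 0.04 (SE 0.20) against WT and -0.29 (SE 0.23) against E1. Exons of Atp6v1h, a proton pump subunit on the other strand, overlap Rgs20. Atp6v1h as a whole gene had 107 to 155 CPM, the part from the overlap was not measured, and whether counting used strand is not given. The pseudogene Gm17101, also on the other strand, overlaps Rgs20 exons too and had at most 12 counts in a library.

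Several members were extreme in the same libraries. E1 replicate 1 held the highest value of 4 members, Rgs2, Rgs9, Rgs14 and Rgs20, and KI-96 replicate 3 held the lowest of 3, Rgs10, Rgs14 and Rgs20, and the highest of Rgs8. Over the 12 libraries low in cortical markers, Rgs4 and Rgs20 were the pair most alike among 36, with a Pearson r of log2 CPM of 0.82 (Spearman rho 0.90), followed by Rgs2 and Rgs20 at 0.81 (rho 0.82). Rgs8 and Rgs10 had the lowest r, at -0.61 (rho -0.53), and Rgs14 and Rgs16 the next, at -0.56 (rho -0.84). Without E1 replicate 1 and KI-96 replicates 3 and 4 these 4 values of r were 0.82, 0.57, -0.50 and -0.93 over 9 libraries. The order of pairs then changed: Rgs8 and Rgs14 were the most alike, at 0.86 (0.18 over the 12), and Rgs10 and Rgs20 were at -0.84. These points mix the 3 genotypes and differ in depth and tissue content, and the values are descriptions.

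Among 13708 protein-coding genes with a mean of at least 1 CPM, those most like each member over the same 12 libraries were taken by Pearson r of log2 CPM. A high r over these libraries follows from that choice. For Rgs20 they were Ccm2 (r 0.98, rho 0.97) and Ptpn5, the striatum-enriched phosphatase STEP (r 0.97, rho 0.91). For Rgs8 they were Bcr (r 0.97, rho 0.94) and Agap2 (r 0.96, rho 0.94), and for Rgs4 the first was Wasl (r 0.89, rho 0.93). Rgs9 was most like Zbtb10 (r 0.94, rho 0.87) and Pxdn (r 0.93, rho 0.95), and Rgs7 most like Idnk (r 0.87, rho 0.93) and Tmem121 (r 0.84, rho 0.87). Rgs2 with Msl3l2 (r 0.95, rho 0.87) and Dusp14 (r 0.94, rho 0.84), and Rgs14 with Btbd19 (r 0.94, rho 0.82) and Klf16 (r 0.93, rho 0.88), had E1 replicate 1 and KI-96 replicate 3 farthest from the median, without which r was 0.79 to 0.85. Rgs10 with Gpn3 (r 0.96, rho 0.78) and Pwp1 (r 0.95, rho 0.69) had r of 0.69 and 0.70 without KI-96 replicate 3 and WT replicate 5. Rgs16 with Gjc1 (r 0.92, rho 0.80) and Tnnt1 (r 0.90, rho 0.65) had r of 0.74 and 0.73 without KI-96 replicates 4 and 2. Over all 15 libraries r ran from 0.46 (Rgs7 with Idnk) to 0.96 (Rgs20 with Ccm2), and was 0.54 for Rgs4 with Wasl.

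Of 12 other genes with an Rgs symbol, 8 were tested and 0 were called in any comparison. Rgs1, Rgs13, Rgs18 and Rgs21 were below the filter, with at most 7 counts in a library. At an unadjusted p under 0.05, 0 of the 8 were past in E1 against WT, 2 were lower in KI-96 against WT and 1 lower in KI-96 against E1. Of all genes, 4.68% were lower at that level in KI-96 against WT and 6.42% in KI-96 against E1. Rgs22, a member of the family known from testis and ciliated cells, had 4.02 ± 1.81 CPM in E1, 2.08 ± 0.567 in KI-96 and 4.27 ± 2.23 in WT, with log2 fold changes of -1.04 (SE 0.40, edgeR adjusted p = 0.391) for KI-96 against WT and -0.94 (SE 0.44, edgeR adjusted p = 0.343) for KI-96 against E1. Rgs12, with the smallest unadjusted p of the list in E1 against WT, had 38.7 ± 17.0 CPM in E1 and 33.2 ± 4.75 in WT (log2 fold change 0.22, SE 0.19). Rgs11, the other gene lower in KI-96 and named after its value was seen, is an R7 protein and had 26.1 ± 10.6 CPM in KI-96 and 39.4 ± 9.48 in WT (log2 fold change -0.58, SE 0.26, edgeR adjusted p = 0.442).

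The genes upstream and downstream of RGS proteins were counted in the same fit, and 0 of them were called. At an unadjusted p under 0.05, 3.69% of all genes were higher and 5.06% lower in E1 against WT. In KI-96 against WT these shares were 5.8% and 4.68%, and in KI-96 against E1 they were 7.84% and 6.42%. Of 13 G alpha subunits, 1 in E1 against WT (lower) and 2 in KI-96 against WT (higher) had an unadjusted p under 0.05. In KI-96 against E1, 1 of the 13 did (higher). Gna12 had the smallest p in both KI-96 comparisons, at 141 ± 5.04 CPM in KI-96, 107 ± 21.3 in E1 and 120 ± 11.2 in WT. Gna13 was at 58.6 ± 9.30 CPM in E1 and 71.0 ± 9.21 in WT. Of 14 beta and gamma subunits, 1 was higher and 1 lower in E1 and 1 higher in KI-96 against WT, and 1 was higher in KI-96 against E1. Gng10, scarcer than any RGS member, was at 0.583 ± 0.115 CPM in E1, against 1.13 ± 0.327 in WT. Gnb1 in KI-96 was at 654 ± 134 CPM, against 519 ± 58.3 in WT.

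Of 21 striatal receptors, 20 were tested, with 2 lower in E1 and 1 higher in KI-96 against WT at an unadjusted p under 0.05. In KI-96 against E1, 2 were higher at that level. Gpr149 stood at 7.10 ± 2.68 CPM in E1 and 11.6 ± 2.75 in WT, and Adora1, the adenosine A1 receptor, at 155 ± 39.5 CPM in KI-96 and 121 ± 21.3 in WT. Of 7 receptor kinases and arrestins, 1 in E1 and 2 in KI-96 were higher than WT at that level. Arrb1, an arrestin, had 409 ± 61.8 CPM in KI-96 and 311 ± 39.9 in WT (log2 fold change 0.40, SE 0.12, edgeR adjusted p = 0.315), and Grk4, a receptor kinase, had 4.58 ± 1.35 CPM in E1 and 3.34 ± 0.578 in WT. In KI-96 against E1, 1 of the 7 was higher at that level, Grk5, with 23.5 ± 2.90 CPM in KI-96 and 18.7 ± 2.18 in E1. Of 14 effectors, 1 was lower in E1 and 0 were past in KI-96 against WT. Kcnj5, a scarce G protein-gated potassium channel subunit, had 1.03 ± 0.864 CPM in E1 (lowest library 0.256 CPM) and 2.19 ± 1.21 in WT. The adenylyl cyclase Adcy3 had 62.4 ± 10.7 CPM in KI-96 and 52.8 ± 6.72 in WT. In KI-96 against E1, 2 of the 14 effectors were higher at that level. The smallest p was that of another adenylyl cyclase, Adcy9, with 69.2 ± 18.9 CPM in KI-96 and 51.7 ± 7.54 in E1.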

How the data were processed

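Striatal RNA-seq read counts per gene were deposited by the authors as whole numbers, 1 column per mouse and not normalized. The submitters' processing notes name STAR, HTSeq, DESeq2 1.24.0 and GRCm38, with no role for any. The sources used here do not state strandedness. Of 54232 identifiers 54165 matched GENCODE M21 (GRCm38) without version and 52566 with it; of 202 list symbols 201 matched (all but Gpr52). Each library carries its own replicate number within its genotype, and all 33 pairs within groups differed beyond sampling noise (smallest chi-square per degree of freedom 8.59).

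Genes were filtered by group (minimum count 10), leaving 18278. In R 4.3.3, edgeR 4.0.16 (TMM, robust quasi-likelihood) was fitted to 15 libraries with genotype as the factor; contrasts were two-sided, with Benjamini-Hochberg adjustment over all genes and a threshold of 0.05. CPM used TMM library sizes, and log2 CPM a prior count of 2. The script was tested on simulated data. DESeq2 1.42.0, limma 3.58.1 (voom), other filters and scaling, a replicate block, marker covariates and omitted libraries were alternatives; the thalamic covariate and the omission of KI-96 replicates 3 and 4 were chosen after seeing the data.

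The members and lists were chosen with earlier results of these data known. All members were named, and the rule named from each other list the genes called or, with none, the one with the smallest p per comparison; not every such gene is printed. Gnb5, Rgs7bp, Rgs11, Slc17a6, Prkcd and Ppp1r1b are outside the rule and were added after their values were seen, as were the genes that overlap members. Most alike genes were the 2 with the highest Pearson r. Promoters are from RefSeq (GRCm38.p6). Some genes that these rules name are not reported here.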

Additional observations from a re-analysis of the deposited data

Results flagged for a closer look

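Rgs16 in KI-96 replicate 4 stood at 27.2 CPM, and the other 3 KI-96 libraries lay between 2.57 and 6.39 CPM. Rgs20 in E1 replicate 1 stood at 94.0 CPM, and the other 3 E1 libraries lay between 56.7 and 63.1 CPM. For each of the 9 genes the 3 genotypes were examined by Dixon's test of the gap to the nearest library, 27 sets of libraries in all, of which 2 had a library that far from the rest. Chance gives about 1 in 20.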

How the results depend on the processing

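The number of members called was 0 in every setting run. Of 675 alternative values of the 27 member fold changes, 629 kept their sign and 46 did not. The number of all genes called in E1 against WT, 1 as reported, was 0 with no filter, with only the 2 groups in the fit, with the replicate block, with the cortical or thalamic covariate, without the 3 libraries high in cortical markers and without KI-96 replicates 3 and 4. DESeq2 called 58 and limma-voom 2. In KI-96 against WT, 0 as reported, it was 1 with no filter, 72 by DESeq2, 1 by limma-voom and 13 without KI-96 replicates 3 and 4. In KI-96 against E1, 0 as reported, it was 3 with no filter, 206 by DESeq2, 0 by limma-voom and 3 without KI-96 replicates 3 and 4. Leaving out 1 library gave 0 to 257 genes in E1 against WT, 0 to 11 in KI-96 against WT and 0 to 190 in KI-96 against E1; the highest were without E1 replicate 4, WT replicate 1 and E1 replicate 4, and the second highest of the last was 128 without KI-96 replicate 4. The causes were not tested.

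Log2 fold changes that changed sign were mostly near 0. In KI-96 against WT, Rgs7 was 0.0027 with DESeq2 size factors, 0.0040 by DESeq2, 0.0026 by limma-voom, 0.014 with the cortical covariate and 0.0031 without the libraries high in cortical markers. Rgs14 was -0.0060 with no filter, -0.049 by limma-voom, -0.10 with the block, -0.0047 with the cortical covariate and -0.029 without those libraries. In E1 against WT, Rgs10 was 0.068 with the block and 0.034 with the cortical covariate, Rgs16 was -0.025 with that covariate, and Rgs9 was 0.13 without those libraries. With the thalamic covariate, Rgs4 was 0.024 and Rgs16 -0.17 in KI-96 against WT, and Rgs9 was 0.033 and Rgs16 -0.57 in KI-96 against E1. Without KI-96 replicates 3 and 4, Rgs4 was 0.15 and Rgs16 -0.73 in KI-96 against WT, and Rgs4 was 0.028, Rgs14 0.039 and Rgs16 -0.91 in KI-96 against E1.

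Leaving out 1 library gave -0.28 to 0.031 for Rgs9 and -0.081 to 0.019 for Rgs10 in E1 against WT. In KI-96 against WT the ranges were -0.024 to 0.24 for Rgs2, -0.19 to 0.026 for Rgs4, -0.035 to 0.033 for Rgs7, -0.16 to 0.19 for Rgs14, -0.18 to 1.45 for Rgs16 and -0.20 to 0.19 for Rgs20. In KI-96 against E1 they were -0.25 to 0.080 for Rgs9 and -0.36 to 1.27 for Rgs16.

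The labels do not say whether replicate numbers pair the mice. Over 12 same-numbered pairs the correlation of deviations ran from -0.24 to 0.34, and 4 exceeded 0.1. Pairs with different numbers ran from -0.29 to 0.50, so these values cannot decide whether same-numbered mice were paired. With the replicate block 0 members and 0 genes were called, and Rgs20 in KI-96 against WT was -0.092. Rgs16, with as few as 39 counts in a library, has the widest intervals.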

Other observations

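Markers of further cell types were measured in the same fit, and 0 of them were called. All 9 markers of mature oligodendrocytes had negative fold changes in E1 against WT (median log2 fold change -0.38, 1 at an unadjusted p under 0.05, where 5.06% of all genes were lower). The E1 libraries were split: the mean log2 CPM of these markers was 8.71, 8.30, 8.02 and 9.37 in E1 replicates 1 to 4, which include the lowest and the highest of all 15 libraries. All 5 blood genes were positive in E1 against WT (median 0.85, 3 at that level, where 3.69% of all genes were higher). The beta-globin Hbb-bt was at 19.1 ± 14.2 CPM in E1 and 8.06 ± 1.97 in WT. The E1 libraries were split here too. The 5 blood genes summed to 186, 513, 61.1 and 303 CPM in E1 replicates 1 to 4, which include the lowest and the highest of all 15 libraries. Of 9 interneuron markers, 2 were positive in E1 against WT (median -0.16). At an unadjusted p under 0.05, 1 of the 9 was lower, where 5.06% of all genes were lower. That marker, Chat, which makes acetylcholine in striatal cholinergic interneurons, had 22.5 ± 4.31 CPM in E1 and 31.3 ± 3.84 in WT (log2 fold change -0.48, SE 0.14, edgeR adjusted p = 0.448). All 7 choroid plexus markers were negative both in E1 against WT (median -0.42) and in KI-96 against WT (median -0.81), comparisons that share the WT libraries, with 0 at an unadjusted p under 0.05 in each. They summed to 27.97 to 91.0 CPM in E1, 37.8 to 94.97 in KI-96 and 46.4 to 415 in WT, the highest being WT replicate 2.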
